A study of Mus musculus with 6 samples.

Results

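The Ras, Raf and MEK cascade carries growth factor signals from the cell membrane to the ERK kinases. Its 8 members described here are *Hras*, *Nras*, *Araf*, *Braf*, *Ksr1*, *Map2k1*, *Map2k2* and *Mapk3*, and they were found by gene name among the 55416 genes of the deposited expression table, in which each name had 1 row. The rule that picks them uses names and no measured value, but the list of names was drawn up with earlier results of these data known. RNA was measured by sequencing in satellite cells (SCs), the muscle stem cells, of the mouse. Of the 6 libraries, 3 were from wild-type (WT) SCs and 3 from *Ltf*-KO SCs, which lack lactotransferrin, a secreted iron-binding protein. The knockout was systemic and was made by CRISPR-Cas9 in zygotes of the C57/BL6N background, so that the cells came from animals without the gene in any tissue and not from a deletion limited to SCs. Cells of both genotypes were sorted from muscle by flow cytometry and grown for 4 days, and no further treatment is named. The sources list serum, chick embryo extract and basic fibroblast growth factor for the medium that took up the sorted cells, and do not spell out what the cells were grown in afterwards. The labels do not say whether the 3 libraries of a genotype came from separate animals or cultures, so that the p-values measure only the spread between these samples, which may be technical.

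The Ras proteins are small GTPases that are switched on at the inner face of the membrane when exchange factors load them with GTP, and switched off by GTPase-activating proteins. Active Ras recruits the Raf kinases, Raf phosphorylates the MEK kinases, and MEK phosphorylates ERK on a threonine and a tyrosine. Each of these steps acts on protein, so that an RNA level tells how much transcript of a component was present and not whether the step was active. In muscle progenitors the cascade is known for its part in proliferation under growth factors.

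Each layer is encoded by closely related genes, and the sequences show how alike they are. *Hras* lies at chr7:141189105-141194005 on the minus strand and *Nras* at chr3:103058285-103067914 on the plus strand (GRCm38, GENCODE M21, as all positions given here).

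*Map2k1* (MEK1, chr9:64185770-64253631, minus strand) and *Map2k2* (MEK2, chr10:81105915-81133975, plus strand) share the residues of their activation loop, which is shown because Raf acts on it. Capitals mark the codons of the serines that Raf phosphorylates, serines 218 and 222 of MEK1 and serines 222 and 226 of MEK2. The stretches run over codons 214 to 226 and codons 218 to 230 and encode the same residues, and they differ at 7 bases in 7 of 13 codons. The corresponding stretch of *Mapk3* (ERK1, chr7:126759601-126765819, plus strand), from codon 198 to codon 210, holds the sites that MEK phosphorylates. Its capitals mark the codons of threonine 203, the glutamate that follows and tyrosine 205.

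Map2k1: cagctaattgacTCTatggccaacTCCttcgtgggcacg
Map2k2: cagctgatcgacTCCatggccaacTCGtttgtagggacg
Mapk3: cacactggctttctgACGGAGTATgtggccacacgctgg

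Over the whole coding sequence, *Hras* and *Nras* shared 427 of 567 aligned bases (75.3%), with a longest identical run of 23 bases. *Map2k1* and *Map2k2* shared 919 of 1175 aligned bases (78.2%), with a longest identical run of 56 bases. *Araf* (chrX:20797814-20860519, plus strand) and *Braf* (chr6:39603237-39725463, minus strand) shared 1165 of 1792 aligned bases (65.01%), with a longest identical run of 17 bases. How reads in such runs were counted is not given in the sources used here, and levels within a pair carry that uncertainty. *Ksr1* (chr11:79013440-79146407, minus strand) encodes a scaffold related to Raf that holds Raf, MEK and ERK together.

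Values are in TPM, a measure of transcript abundance in which read numbers are set against gene length and each library is brought to one total, so that genes can be compared within a library and the depth behind a value is unknown. Each library summed to between 993650 and 994356 TPM and held 12828 to 12951 genes at 1 TPM or more. *Ltf* itself stood at 0.12, 0.02 and 0.02 TPM in WT SCs and was listed at 0.02, 0.03 and 0 TPM in *Ltf*-KO SCs, near the floor in both, so that it does not check the genotype labels. The myogenic markers were all present, with *Myod1* at 747.6 to 815.7 TPM and *Pax7* at 36.6 to 43.3 TPM. Of the markers of other cells, *Ptprc* of immune cells stood at 0.16 TPM or less, as did *Itgam* and *Adgre1*, whereas *Cd68* stood at 3.12 to 3.98 TPM. *Cspg4* of the smooth muscle and pericyte list stood at 30.8 to 41.1 TPM, and the rest of that list stood below 1 TPM. For endothelium, *Pecam1* stood at 1.02 to 2.71 TPM and *Cdh5* at 1.79 to 4.97 TPM. *Pdgfra* of fibroblasts stood at 1.00 to 1.90 TPM. Other fibroblast markers were higher, with the collagen gene *Col3a1* at 88.0 to 117.7 TPM, *Col1a1* at 3.73 to 9.32 TPM and *Dcn* at 2.04 to 6.83 TPM.

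All 8 members were expressed in every library. By mean over the 6 libraries the order was *Map2k2* (108.2 TPM), *Mapk3* (83.98 TPM), *Nras* (78.8 TPM), *Map2k1* (78.2 TPM), *Hras* (71.2 TPM), *Araf* (55.8 TPM), *Braf* (7.65 TPM) and *Ksr1* (5.57 TPM). *Map2k2* was the highest member in every library, and its range did not meet that of *Mapk3*. The next 4 genes were not separated in order: *Mapk3* was above *Nras* in 3 of 6 libraries, *Nras* above *Map2k1* in 3 of 6 and *Map2k1* above *Hras* in 5 of 6, with overlapping ranges. *Araf* was below *Hras*, *Braf* below *Araf* and *Ksr1* below *Braf* in 6 of 6 libraries, without overlap. The members thus fell in a group of 6 between 48.95 and 116.7 TPM and a pair, *Braf* and *Ksr1*, between 5.09 and 8.34 TPM. Among the 12956 genes whose mean reached 1 TPM, *Map2k2* stood at the 90.2th percentile of mean level, *Araf* at the 80.7th, *Braf* at the 31.7th and *Ksr1* at the 25.8th.

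**Figure D1:**
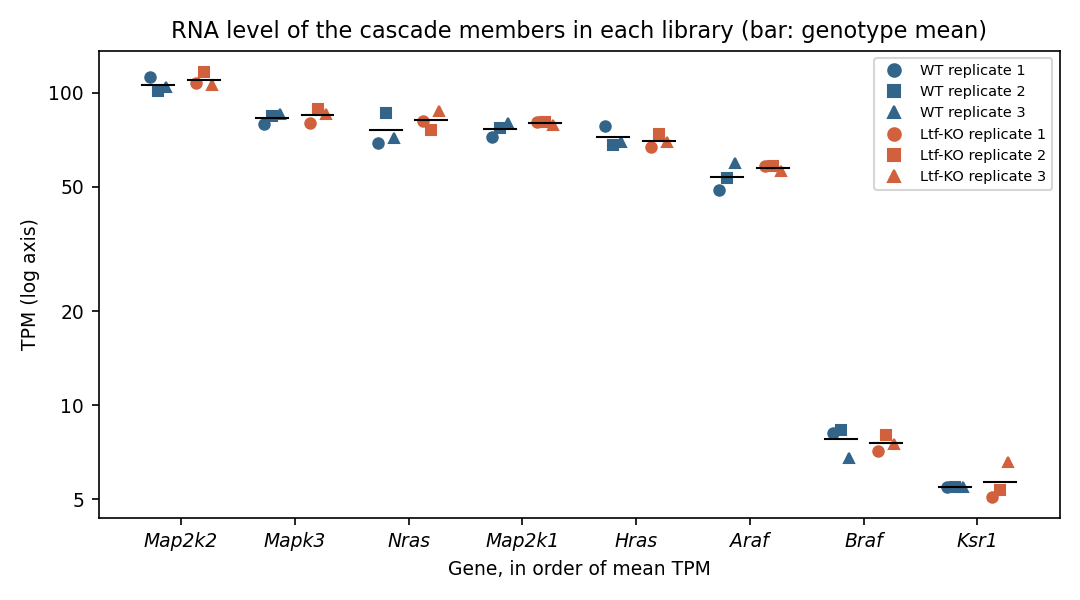
TPM of each member in each library on a log axis, with WT libraries in blue, *Ltf*-KO libraries in orange and a bar at each genotype mean. The points of both genotypes overlap for all 8 genes, and *Braf* and *Ksr1* lie at 5.09 to 8.34 TPM while the other 6 genes lie at 48.95 TPM or more.

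The question of the genotype comparison was whether RNA levels in cultured SCs change when lactotransferrin is missing. *Ltf*-KO was compared with WT by limma on log2(TPM + 1), letting the variance follow the mean level, over those 12956 genes. No member passed the test. At a Benjamini-Hochberg adjusted p below 0.05 there were 0 of 8 members, beside 0% of all genes. At an unadjusted p below 0.05 there were also 0 of 8, where 3.78% of all genes passed, 2.01% with higher and 1.78% with lower levels in *Ltf*-KO. The adjusted p in limma was 0.999 for each member. The values of the genotypes overlapped for 8 of 8 members, where those of 8.46% of all genes did not (4.73% higher and 3.73% lower in *Ltf*-KO). Fold changes below are *Ltf*-KO minus WT on the log2(TPM + 1) scale, which slightly understates changes of *Braf* and *Ksr1*.

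*Hras* encodes a Ras protein that is held at the membrane by farnesyl and palmitoyl groups. It measured 78.62, 67.99 and 69.69 TPM in WT SCs against 67.27, 74.06 and 69.70 TPM in *Ltf*-KO SCs, which gave 72.1 ± 5.71 and 70.3 ± 3.44 TPM (SD, n = 3 each). WT replicate 1 was the highest library, and the other 5 values lay within the range of the *Ltf*-KO libraries. The log2 fold change was -0.033 (SE 0.067, 95% interval -0.20 to 0.13).

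*Nras*, whose protein is modified by the same kinds of lipid, had the widest range of the highly expressed members. It measured 69.14, 86.51 and 71.88 TPM in WT SCs against 81.22, 75.99 and 87.85 TPM in *Ltf*-KO SCs, or 75.8 ± 9.34 and 81.7 ± 5.94 TPM. WT replicate 2 stood beside the highest *Ltf*-KO library, and the other WT libraries were below all 3 *Ltf*-KO libraries. The log2 fold change was 0.11 (SE 0.096, 95% interval -0.12 to 0.34). Without WT replicate 2 it was 0.21 with an unadjusted p of 0.0308 and an adjusted p of 1 in limma, and it fell to 0.048 when WT replicate 1 was left out and to 0.057 when *Ltf*-KO replicate 3 was.

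*Araf* and *Braf* encode Raf kinases, of which B-Raf has the higher basal activity. *Araf* measured 48.95, 53.23 and 59.74 TPM in WT SCs against 58.41, 58.44 and 56.06 TPM in *Ltf*-KO SCs (53.97 ± 5.43 and 57.6 ± 1.37 TPM). The WT libraries spread on both sides of the *Ltf*-KO libraries, which lay close together, and the log2 fold change was 0.097 (SE 0.074, 95% interval -0.081 to 0.28). Without WT replicate 3, the highest library, it was 0.17 with an unadjusted p of 0.0241 and an adjusted p of 1 in limma, and without WT replicate 1, the lowest, it was 0.031.

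*Braf* measured 8.16, 8.34 and 6.77 TPM in WT SCs against 7.12, 8.01 and 7.50 TPM in *Ltf*-KO SCs. Both the lowest and the highest value were WT, and the means of 7.76 ± 0.859 and 7.54 ± 0.447 TPM gave a log2 fold change of -0.032 (SE 0.095, 95% interval -0.26 to 0.20). The scaffold *Ksr1* measured 5.45, 5.46 and 5.48 TPM in WT SCs against 5.09, 5.36 and 6.55 TPM in *Ltf*-KO SCs. Its WT values were nearly identical, and the *Ltf*-KO values lay on both sides of them, with *Ltf*-KO replicate 3 the highest. The log2 fold change of *Ksr1* was 0.038 (SE 0.10, 95% interval -0.20 to 0.28), and it was -0.055 without that library.

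*Map2k1* measured 72.18, 76.97 and 80.20 TPM in WT SCs against 80.49, 80.87 and 78.71 TPM in *Ltf*-KO SCs (76.5 ± 4.04 and 80.02 ± 1.15 TPM). The *Ltf*-KO values were close to the highest WT value, and the log2 fold change was 0.066 (SE 0.048, 95% interval -0.049 to 0.18). *Map2k2* measured 112.88, 101.62 and 104.72 TPM in WT SCs against 107.23, 116.73 and 106.31 TPM in *Ltf*-KO SCs. Its libraries were intermixed, with means of 106.4 ± 5.82 and 110.1 ± 5.77 TPM and a log2 fold change of 0.049 (SE 0.057, 95% interval -0.088 to 0.19).

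*Mapk3* encodes ERK1, the kinase at the end of the cascade. It measured 79.24, 84.27 and 85.62 TPM in WT SCs against 80.25, 89.03 and 85.45 TPM in *Ltf*-KO SCs (83.04 ± 3.36 and 84.9 ± 4.41 TPM). The genotypes overlapped over most of their range, and the log2 fold change was 0.031 (SE 0.053, 95% interval -0.097 to 0.16).

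The intervals show how large a change these libraries leave possible. The 95% confidence interval was narrowest for *Map2k1*, from -0.049 to 0.18, and widest for *Ksr1*, from -0.20 to 0.28. Taken over all 8 members, the interval bounds reached from 0.835-fold, for *Braf*, to 1.27-fold, for *Nras*. These ends belong to single genes, and the interval of *Map2k1*, for example, ran from 0.967-fold to 1.13-fold. For each gene a change within its own interval could not be told from none, and a p above the threshold does not show equal levels. The fold change was above 0 for 6 of 8 members (75%), beside 55.7% of all genes tested, and its median was 0.044, beside 0.011 over all genes. *Hras*, *Braf*, *Mapk3* and *Ksr1* changed sign when 1 library was left out, whereas *Nras*, *Araf*, *Map2k1* and *Map2k2* stayed above 0 whichever library was left out.

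**Figure D2:**
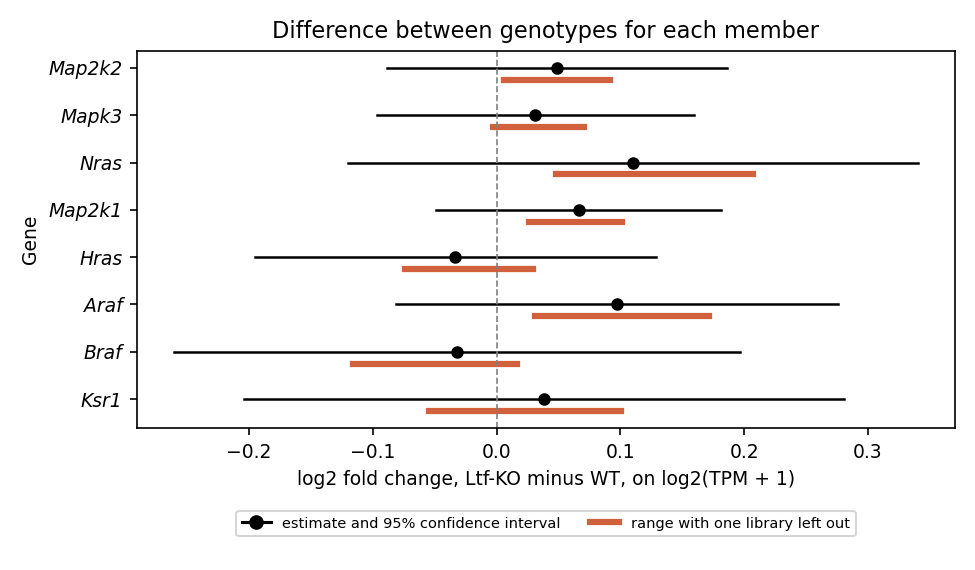
log2 fold change of each member, *Ltf*-KO minus WT on log2(TPM + 1), with its 95% confidence interval (black) and the range of estimates with 1 library left out (orange). All 8 intervals include 0, and the orange ranges of *Hras*, *Braf*, *Mapk3* and *Ksr1* cross 0.

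The members differed in how tightly their replicates agreed. In the WT libraries the coefficient of variation ran from 0.280% for *Ksr1* to 12.3% for *Nras*, and in the *Ltf*-KO libraries from 1.44% for *Map2k1* to 13.7% for *Ksr1*. The median over all genes of 10 to 100 TPM was 5.58% in WT and 5.85% in *Ltf*-KO libraries. Against these, *Nras* was more variable in both genotypes (12.3% and 7.28%). *Mapk3* (4.05% and 5.20%) and *Map2k1* (5.28% and 1.44%) were less variable in both. *Araf* was more variable in WT (10.1%) and less in *Ltf*-KO (2.37%), and so was *Hras* (7.92% and 4.89%). *Ksr1* and *Braf* are best read against genes of 1 to 10 TPM, whose median was 14.1% in both genotypes. *Map2k2* (5.47% and 5.24%) is best read against genes of 100 TPM or more. It was more variable than their median in both WT (3.42%) and *Ltf*-KO libraries (3.55%). The highest library exceeded the lowest by 1.12-fold for *Map2k1* and *Mapk3* and by 1.29-fold for *Ksr1*, the ends of the range over the 8 members. With 3 libraries a genotype, these coefficients are themselves imprecise, and their difference between genotypes was not tested.

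Within each layer the balance of the paralogues was compared as a share of the summed TPM of the pair. *Hras* made up 53.2%, 44.01% and 49.2% of *Hras* and *Nras* in WT SCs and 45.3%, 49.4% and 44.2% in *Ltf*-KO SCs, so that the 2 transcripts were present at nearly equal levels. *Hras* was above *Nras* in 1 of 6 libraries, WT replicate 1. *Araf* made up 85.7%, 86.5% and 89.8% of *Araf* and *Braf* in WT and 89.1%, 87.9% and 88.2% in *Ltf*-KO libraries. *Araf* was thus 6.00 to 8.82 times as high as *Braf* in each library, although both feed the same MEK kinases. *Map2k1* made up 39.004%, 43.1% and 43.4% of *Map2k1* and *Map2k2* in WT and 42.9%, 40.9% and 42.5% in *Ltf*-KO libraries, and *Map2k2* was the higher MEK transcript in 6 of 6 libraries. The genotype means differed by -2.51, 1.10 and 0.291 percentage points for the Ras, Raf and MEK pairs, and the values of both genotypes overlapped for each pair. With 1 library left out the Ras difference reached -4.92 points (WT replicate 2 left out) and -0.317 points (WT replicate 1 left out), and the Raf difference reached 0.289 points (WT replicate 1 left out) and 2.34 points (WT replicate 3 left out). The MEK difference was -1.12 points when WT replicate 1 was left out and 1.06 points when WT replicate 3 was, so that its direction was not set. The shares cover these pairs alone and not every gene of a family.

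**Figure D3:**
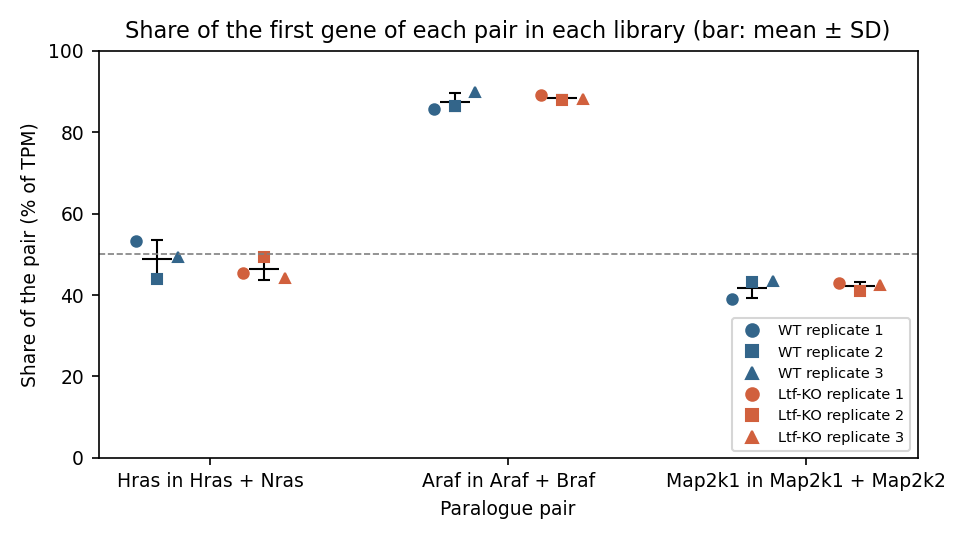
Share of the first gene of each pair in the summed TPM of the pair, in percent, for each library, with the mean ± SD of each genotype (n = 3) and a dashed line at equal levels. *Hras* and *Nras* lie near the line, *Araf* takes 85.7% to 89.8% of its pair and *Map2k1* takes 39.004% to 43.4%.

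The libraries differed in their level of differentiation genes, and this was set beside the members. *Myog*, a transcription factor switched on as myoblasts differentiate, measured 319.3, 410.3 and 293.4 TPM in WT SCs against 360.4, 266.2 and 507.8 TPM in *Ltf*-KO SCs. The summed level of 8 differentiation genes was 1541 to 2055 TPM in WT and 1579 to 2412 TPM in *Ltf*-KO libraries. In the test between genotypes 0 of the 8 genes passed. The mean was higher in *Ltf*-KO for 8 of 8 (median log2 fold change 0.14), beside 55.7% of all genes with a fold change above 0. These directions hung on single libraries. With 1 library left out, the fold change of *Myog* ranged from -0.12 to 0.34. Only *Acta1* (0.00095 to 0.25) stayed above 0 whichever library was left out. In the fibroblast list 6 of 6 genes had the higher mean in *Ltf*-KO. The median log2 fold change was 0.19 over the 5 tested genes, and 0 passed the test. With 1 library left out *Col3a1* ranged from -0.022 to 0.17 and *Ly6a* from -0.076 to 0.26, whereas *Pdgfra*, *Col1a1* and *Dcn* stayed above 0. The fibroblast sum was 102.8 to 108.1 TPM in WT and 102.2 to 133.7 TPM in *Ltf*-KO libraries. *Col3a1*, at 88.0 to 117.7 TPM, made up most of it, so that relations with this sum mainly reflect that 1 gene. The fibroblast sum was 102.2 TPM in *Ltf*-KO replicate 3, where the differentiation sum was highest, and 102.8 TPM in WT replicates 1 and 3. In WT replicate 2, the next highest in differentiation, the fibroblast sum was 108.1 TPM. WT replicate 2 and *Ltf*-KO replicate 3 had the highest summed level of differentiation genes and also the highest *Nras*. Over the 6 libraries *Nras* and the summed level, both as log2(TPM + 1), had Pearson's r = 0.884 (exact permutation p = 0.0167, adjusted p = 0.667) and Spearman's rho = 0.829 (exact permutation p = 0.0583, adjusted p = 0.681). Without those 2 libraries, the farthest from the median, r was 0.698 (n = 4). The summed level of 3 Schwann cell genes was 9.91 to 18.8 TPM in WT and 11.2 to 16.8 TPM in *Ltf*-KO libraries. With it *Araf* had r = 0.808 (exact permutation p = 0.0431, adjusted p = 0.741) and rho = 0.943 (exact permutation p = 0.0167, adjusted p = 0.333). That r was 0.374 without the 2 libraries farthest from the median. *Ksr1* and the fibroblast sum had rho = -0.943 (exact permutation p = 0.0167, adjusted p = 0.333) and r = -0.620 (exact permutation p = 0.171, adjusted p = 0.745). Of 40 such relations, 8 members with 5 marker lists, adjusted by the Benjamini-Hochberg method, 0 passed. With only 6 libraries the smallest possible permutation p was too large for a single relation to pass after that adjustment. The count therefore does not show that the members and the lists were unrelated. The part of differentiation, fibroblasts or other cells in the members' values was not tested, and in such bulk samples fewer cells of a type and less RNA per cell cannot be told apart.

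**Figure D4:**
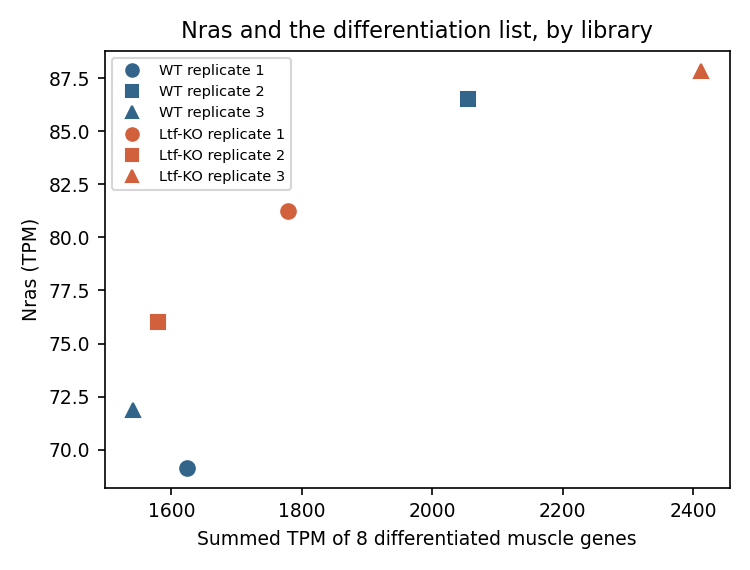
*Nras* level (TPM) against the summed TPM of 8 differentiated muscle genes, 1 point per library (WT blue, *Ltf*-KO orange, symbols for replicates). WT replicate 2 and *Ltf*-KO replicate 3 are the highest on both axes, at 86.51 and 87.85 TPM of *Nras*, and neither axis starts at 0.

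For *Nras* and *Ksr1*, the members with the widest range on the log2 scale, the genes with the most similar pattern over the 6 libraries were found by the root mean square difference of values centred on each gene's mean. Closest to *Nras* were *Cavin4*, a caveolar protein of muscle (0.026), *Cluap1*, a protein of ciliary transport (0.029), and *Ankrd10* (0.033), where *Nras* itself varied by 0.13. *Cavin4* measured 96.12, 114.7 and 96.19 TPM in WT SCs against 106.3, 101.4 and 116.7 TPM in *Ltf*-KO SCs, with the same highest libraries as *Nras*. Among the closest to *Ksr1* were *Gm10130* (0.027) and *Mrpl4*, a protein of the mitochondrial ribosome (0.028), where *Ksr1* varied by 0.097. *Mrpl4* was at 56.15, 55.68 and 54.99 TPM in WT and at 51.46, 54.11 and 61.84 TPM in *Ltf*-KO libraries, so that it too was even in WT and highest in *Ltf*-KO replicate 3. These genes were picked for likeness among 12956 over 6 libraries.

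The genes that load, unload, place and hold the members were taken from 6 lists of 48 genes, of which 41 were tested. In limma 0 of the 41 passed at an adjusted and 0 at an unadjusted p below 0.05, beside 0% and 3.78% of all genes. The fold change was above 0 for 22 and below 0 for 19, with a median of 0.0066. For 1 of the 41 (2.44%) the genotypes had separate ranges, beside 8.46% of all genes. That gene was *Ppp1ca*, a catalytic subunit of protein phosphatase 1, which removes an inhibitory phosphate from Raf, at 419.6, 419.8 and 417.1 TPM in WT and 397.99, 414.1 and 411.98 TPM in *Ltf*-KO libraries (log2 fold change -0.038, limma adjusted p = 0.999).

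By level, the exchange factors were the lowest list. Their highest gene was *Sos2*, a receptor-linked exchange factor, at a mean of 11.9 TPM, and *Rasgrp1*, *Rasgrp4*, *Rasgrf1* and *Rasgrf2* were below the filter, with *Rasgrp4* at 0.018 TPM. Among the GTPase-activating proteins, which switch Ras off, *Rasa1* was highest at 223.3 TPM, above every one of the 8 members, and *Rasal1* was lowest at 0.373 TPM. *Rasa1* was at 217.7, 217.6 and 215.1 TPM in WT and 249.8, 226.8 and 213.1 TPM in *Ltf*-KO libraries, with a log2 fold change of 0.081 (SE 0.059, limma adjusted p = 0.999). The Ras relatives ran from *Mras* at 5.18 TPM, whose protein acts with Shoc2 and protein phosphatase 1 on Raf, to *Rras2* at 102.9 TPM, between *Map2k2* and *Mapk3* in mean level.

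The 8 genes of Ras lipid modification and transport were all tested. The lowest, *Zdhhc9* at 10.1 TPM, and the highest, *Golga7* at 69.6 TPM, encode the subunits of the enzyme that palmitoylates H-Ras and N-Ras. *Zdhhc9* had a log2 fold change of 0.087 (SE 0.11) and *Golga7* one of 0.0033 (SE 0.037). Of the 15 scaffolds and Raf regulators, 13 were tested, and *Ksr2*, the paralogue of *Ksr1*, was lowest at 0.028 TPM, so that *Ksr1* was the KSR transcript detected above the filter in these cells. The 14-3-3 proteins, which bind phosphorylated Raf, were the highest list, from *Ywhab* at 140.7 TPM to *Ywhae* at 953.4 TPM. The fold change was above 0 for 2 of 4 exchange factors, 5 of 7 GTPase-activating proteins, 2 of 3 Ras relatives, 5 of 8 genes of lipid modification, 5 of 13 scaffolds and regulators and 3 of 6 genes of 14-3-3 proteins.

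**Figure D5:**
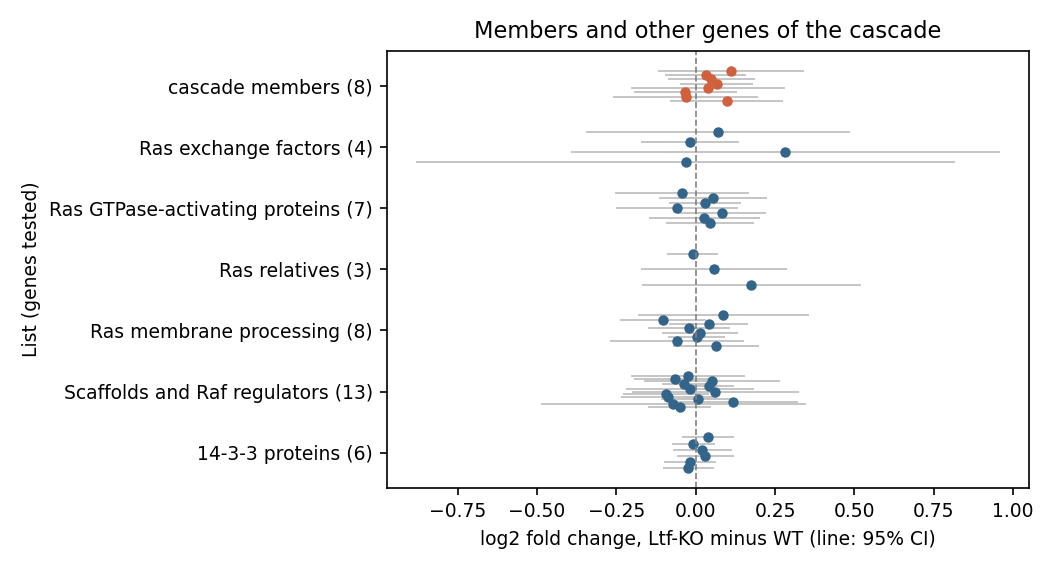
log2 fold change, *Ltf*-KO minus WT on log2(TPM + 1), of the 8 members (orange) and of the 41 tested genes of the other 6 lists (blue), 1 point per gene with its 95% confidence interval in grey. Each of the intervals includes 0, and the estimates of the list genes run from -0.10 for *Rce1* to 0.28 for *Rasgrp3*.

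In the annotation columns deposited with the values, 7 of 8 members, all but *Ksr1*, carried the MAPK signaling pathway, and 6 of 8, all but *Araf* and *Braf*, carried the Ras signaling pathway. By protein domain, 6 members had a protein kinase domain, *Hras* and *Nras* a Ras family domain, and *Araf* and *Braf* a Raf-like Ras-binding domain, which 9 genes of the table carried. *Araf*, *Braf* and *Ksr1* shared a C1 domain, a zinc-binding fold that contacts membrane lipids.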

How the data were processed

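RNA was sequenced from 3 WT and 3 *Ltf*-KO libraries of SCs grown for 4 days. The authors deposited TPM values of 55416 genes, normalized by the sequencing company's protocol. The submitters' processing notes name the build GRCm39, and the aligner, counter and annotation are not given in the sources used here. GENCODE M21 on GRCm38 gave the positions and sequences, looked up by gene identifier. TPM keeps no depth, so precision was judged from the spread between libraries.

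Libraries were grouped by their labels. The 12956 genes whose mean reached 1 TPM were tested by limma 3.58.1 in R 4.3.3 (lmFit, eBayes with trend) on log2(TPM + 1), two-sided, with Benjamini-Hochberg adjustment and a threshold of 0.05. The fit was tested on simulated data. Other sums and exact permutation tests used Python 3.11.15 and scipy 1.17.1.

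The list of member names and the other lists were drawn up with earlier results of these data known. Named are the members, *Ltf*, pathway list genes at an unadjusted p under 0.05 (there were 0) or else the highest and lowest of each list by mean TPM, 6 cell type markers, and the 3 genes most like each of the 2 members of widest range. *Col3a1*, *Col1a1*, *Dcn*, *Ly6a*, *Acta1*, *Rce1*, *Rasgrp3*, *Rasgrp1*, *Rasgrf1*, *Rasgrf2*, *Itgam*, *Adgre1*, *Cd68*, *Cspg4*, *Cdh5* and *Kcnj8* fall outside that rule and were chosen after their values were seen. Relations with marker lists were added after seeing the data, and every Pearson's r was taken on log2(TPM + 1) of the member and of the list sum. Marker lists covered myogenic cells (7 of 7 genes at 1 TPM or more), differentiated muscle (8 of 8), fibroblasts (5 of 6), endothelium (3 of 4), immune cells (1 of 4), smooth muscle and pericytes (1 of 4) and Schwann cells (3 of 3). *Ptprc*, *Itgam*, *Adgre1* and *Kcnj8* were listed at 0 in at least 1 library. Further genes of these families and 1 of the genes most like *Ksr1* are not reported here. Same-numbered libraries did not deviate together (r of -0.041, -0.058 and -0.088), so the numbers were not taken to pair them. Alternatives were a pseudocount of 0.1, no filter, at least 10 TPM, quantile normalization, median-of-ratios scaling, no variance trend, a replicate block and each library left out.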

Additional observations from a re-analysis of the deposited data

How the results depend on the processing

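No member had an adjusted p under 0.05 in limma under any alternative run, and the lowest was 0.946. The filters, the replicate block and the variance trend leave a member's fold change as it is. With all 6 libraries, only the pseudocount, quantile normalization and median-of-ratios scaling could have turned a direction. With all 6 libraries the 8 members kept their direction in 54 of 54 refits, those fixed settings included. With 1 library left out they did so in 41 of 48, and the fold change ranged from -0.074 to 0.030 for *Hras*, -0.12 to 0.017 for *Braf*, -0.055 to 0.10 for *Ksr1*, -0.0032 to 0.071 for *Mapk3*, 0.048 to 0.21 for *Nras*, 0.031 to 0.17 for *Araf*, 0.026 to 0.10 for *Map2k1* and 0.0063 to 0.092 for *Map2k2*. The paralogue differences ranged from -4.92 to -0.317, 0.289 to 2.34 and -1.12 to 1.06 points for the Ras, Raf and MEK pairs. Without 1 library, 0 to 6 of all genes passed at an adjusted p under 0.05, and at an unadjusted p below 0.05 stood 0 to 1 members and 0 to 2 pathway list genes. The unadjusted count over all genes was 490, and it was 890 without a filter and 281 at 10 TPM or more, where *Braf* and *Ksr1* were not tested. Of the unadjusted calls, 46.9% were lower in *Ltf*-KO, and 60.04% with quantile normalization. With the replicate block, 0 genes passed at an adjusted and 380 at an unadjusted p under 0.05, with 0 members and 0 list genes at either, so that the block changed no call of a member. The unknown depth and 3 libraries a genotype limit the size of change that could be seen.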
